A study of Mus musculus with 2 samples.

Results

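The subject is the expression of basement membrane genes in mouse uterus at day 4 of pregnancy, in RNA from whole organs of 2 animals. The 36 genes were taken by symbol and cover the laminin chains, the collagen IV chains, nidogens, perlecan, agrin, netrins, SMOC proteins, peroxidasin, the Fraser complex and the dystroglycan and dystrophin anchorage. They are 36 of the 22740 genes in the deposited table. Both animals were C57BL/6, their libraries are titled WT, and the labels give 1 group with no treatment, so no comparison between conditions exists. The animals are called uterus 1 and uterus 2, with 1 library each. Levels are RPKM, reads scaled to transcript length and library size, so genes can be compared with each other. Values after ± are SDs over the 2 uteri (n = 2).

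Basement membranes are thin sheets of extracellular matrix that underlie epithelia and surround vessels, nerves and muscle cells. Laminins, each an alpha, a beta and a gamma chain, polymerise at the cell surface, and a network of collagen IV trimers lies beside them. Nidogens and heparan sulfate proteoglycans join both networks, and integrins and dystroglycan hold the sheet to the cell. In the uterus such sheets lie under the luminal and glandular epithelium, around vessels and around myometrial smooth muscle cells, and embryos must cross the epithelial one after attachment.

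The whole uterus mixes these cells. Smooth muscle markers summed to 1612 (uterus 1) and 1598 RPKM (uterus 2), stromal markers to 3208 and 2949 RPKM, epithelial markers to 244 and 279 RPKM and endothelial markers to 175 and 171 RPKM. All 5 genes of each of these lists were at 1 RPKM or more in both uteri. Markers of nerve-associated Schwann cells summed to 3.63 and 4.22 RPKM, and those of mesothelium to 47.2 and 45.8 RPKM, most of it from Wt1 at 36.6 ± 2.30 RPKM. In such bulk tissue fewer cells of a type and less RNA per cell cannot be told apart. Reads recovered from the RPKM values summed to 3745224 in uterus 1 and 4160901 in uterus 2, of which the 36 genes held 40632 (1.08%) and 41421 (0.995%).

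Of the 36 genes, 30 (83.3%) were detected, meaning 1 RPKM or more in both uteri, against 58.4% of all 22740 genes. A further 2, Lama1 and Sgca, reached 1 RPKM in uterus 1 only, and Lamb3, Fras1, Ntn5 and Frem3 stayed under it in both. The median of the 36 was 18.2 (uterus 1) and 17.3 RPKM (uterus 2), and the median of all detected genes was 11.4 RPKM in each. Levels spanned from Frem3 at 0.0571 ± 0.0306 RPKM to Col4a1 at 235 ± 24.6 RPKM, which ranked 175 of all genes. Only Col4a1, Nid1 and Col4a2 lay at 100 RPKM or more in both uteri, and 22 of the 36 lay at 10 RPKM or more. Ordered by mean level, 17 of the 35 neighbouring pairs had ranges that did not overlap between the 2 uteri, and the other 18 pairs overlapped. A pair with overlapping ranges can still keep the same order within each uterus.

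**Figure D1:**
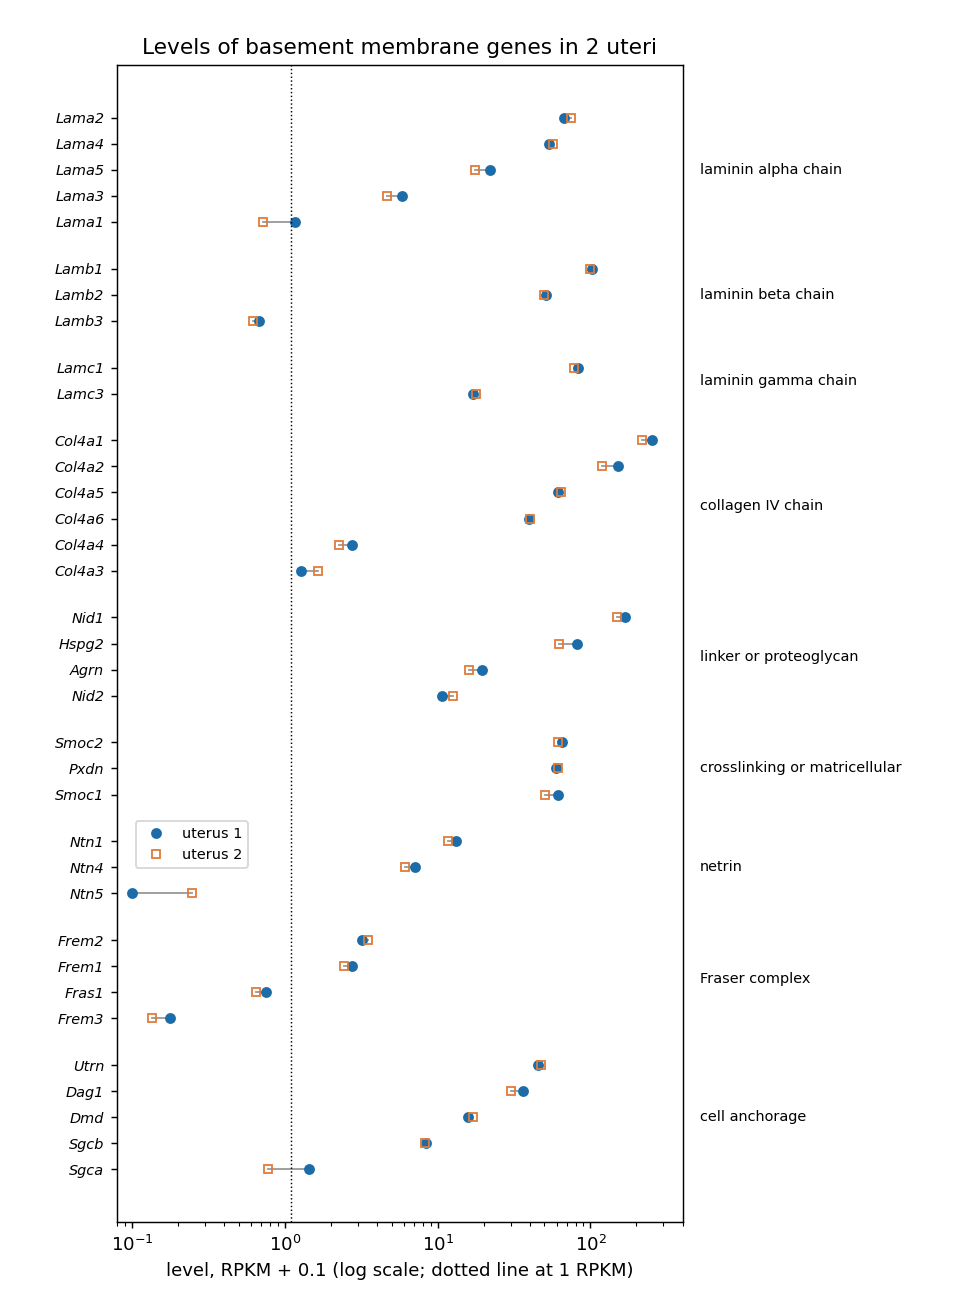
Level of 35 of the 36 genes (horizontal axis, RPKM + 0.1, log scale) in uterus 1 (filled circles) and uterus 2 (open squares), grouped by role, with a dotted line at 1 RPKM. Col4a1, Nid1 and Col4a2 lie furthest right, and Lamb3, Fras1, Ntn5 and Frem3 lie left of the line in both uteri.

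The laminin chains define which trimers a tissue can build. Among the alpha chains, which carry the receptor-binding end, Lama2 was highest. Lama2, the chain typical of muscle and nerve basement membranes, lay at 66.7 (uterus 1) and 74.4 RPKM (uterus 2). Lama4, the chain of vessel walls and mesenchymal tissue, lay at 53.8 and 56.9 RPKM. The ranges of these chains did not overlap, and the level of Lama2 was 1.27 ± 0.0464 times that of Lama4. Lama5, a broadly used chain of epithelia and vessels, lay at 21.8 and 17.6 RPKM.

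Lama3 and Lama1 were far lower. Lama3, the alpha chain of the epithelial laminin of hemidesmosomes, lay at 5.78 and 4.57 RPKM on 229 and 201 reads. Its deposited value was scaled to a transcript of 10342 bases, whereas shorter annotated transcripts of this gene measure 5483 and 5545 bases, so reads from those would give a lower RPKM than their own length would. Lama1, the chain of the earliest embryonic basement membranes, lay at 1.07 and 0.617 RPKM on 39 and 25 reads. Of 8 embryo markers, 3 were detected in both uteri: Sox17 at 50.1 ± 2.23 RPKM, Gata6 at 3.72 ± 0.165 RPKM and Sox7 at 2.96 ± 0.218 RPKM. Eomes held 12 and 21 reads, Nanog 5 and 1, Pou5f1 3 and 1 and Gata4 2 and 0, and Cdx2 was listed at 0 in both. Sox17, on 582 and 688 reads, stood far above these low counts. Whether the Sox17, Gata6 and Sox7 reads came from embryos or from uterine cells was not tested. The part of embryo RNA in the Lama1 level was not tested either. As a share of the summed alpha chain RPKM, Lama2 held 46.5% ± 2.50, Lama4 36.5% ± 0.628, Lama5 13.0% ± 2.26, Lama3 3.42% ± 0.642 and Lama1 0.558% ± 0.223.

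Of the beta chains, Lamb1 lay at 102 and 99.8 RPKM and Lamb2, the chain of mature muscle, vessel and kidney basement membranes, at 50.8 and 49.8 RPKM. Their ratio was nearly the same in both animals, with a mean of 2.01 ± 0.00426. Lamb3, the beta chain of hemidesmosomal laminin, held 9 reads in each uterus (0.579 and 0.521 RPKM). Lamc1, the gamma chain of most laminins, lay at 82.5 and 78.0 RPKM. Lamc3 lay at 16.9 and 17.7 RPKM, and Lamc1 was 4.64 ± 0.333 times higher.

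The summed alpha chains lay at 152 ± 3.47 RPKM and the summed beta chains at 152 ± 2.34 RPKM, so these classes differed by less than the spread between the uteri.

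**Figure D2:**
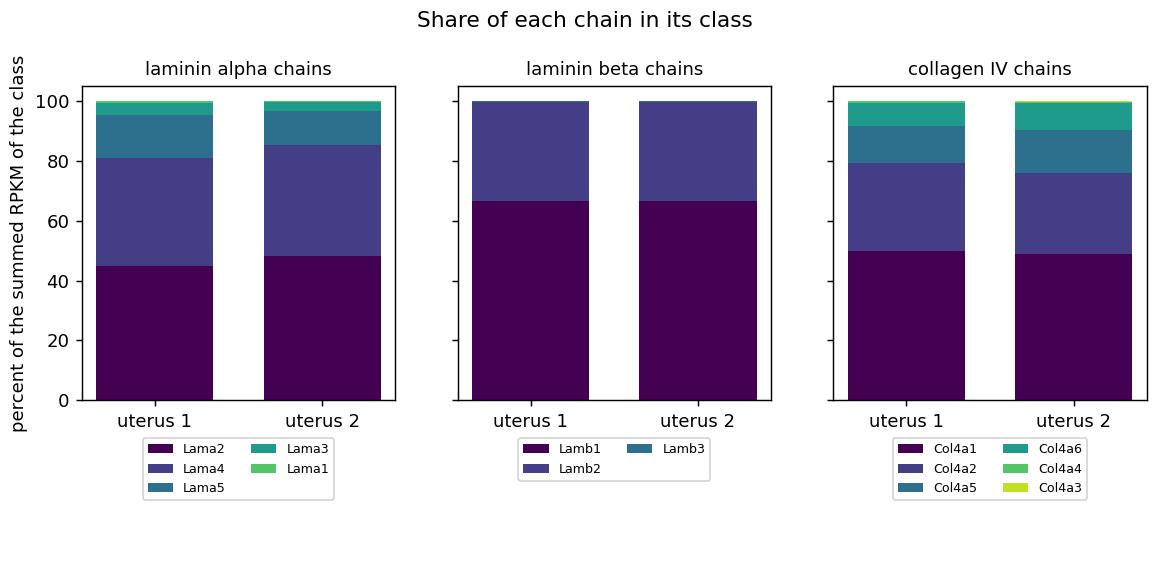
Share of each chain in the summed RPKM of its class (vertical axis, percent, bars from 0) for laminin alpha and beta chains and collagen IV chains, with 1 bar per uterus. Lama2 and Lama4 fill most of the alpha bars, Lamb1 about 66.5% of the beta bars, and Col4a1 and Col4a2 together 77.6% ± 2.55 of the collagen IV bars.

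Collagen IV has 6 chains, encoded by 3 pairs of genes that lie head to head and are read in opposite directions. The level split the pairs into a high, a middle and a low one. Col4a1 lay at 252 (uterus 1) and 217 RPKM (uterus 2) on 6390 and 6115 reads, and Col4a2 at 150.3 and 119.7 RPKM on 3704 and 3273 reads. These are the chains of the ubiquitous network. Col4a5 lay at 61.1 and 63.6 RPKM and Col4a6, its partner in smooth muscle and epithelial basement membranes, at 39.6 and 40.3 RPKM. Col4a3 lay at 1.18 and 1.56 RPKM on 39 and 57 reads and Col4a4 at 2.64 and 2.17 RPKM on 79 and 72 reads. Col4a3 and Col4a4 join Col4a5 in the network of the kidney glomerulus.

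No value of 1 pair overlapped with any of another. Within pairs, the level of Col4a1 was 1.75 ± 0.0983 times that of Col4a2 and the level of Col4a5 was 1.56 ± 0.0258 times that of Col4a6. Col4a4 was 2.23 times Col4a3 in uterus 1 and 1.39 times in uterus 2, on the few reads given. Summed collagen IV came to 507 and 445 RPKM, and Col4a1 and Col4a2 held 79.4% and 75.8% of it.

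By the deposited coordinates, on mouse build mm9 and counted from 1, Col4a1 (NM_009931) lies on chromosome 8 from 11198423 to 11312826 on the minus strand and Col4a2 (NM_009932) from 11312829 to 11449287 on the plus strand, so their starts are 3 bases apart. Col4a3 (NM_007734, plus strand, 82583496 to 82718634) and Col4a4 (NM_007735, minus strand, 82447298 to 82583424) lie on chromosome 1 with starts 72 bases apart. Col4a5 (NM_001163155, plus strand, 137909962 to 138123778) and Col4a6 (NM_053185, minus strand, 137599946 to 137908619) lie on chromosome X with starts 1343 bases apart. The distance between starts therefore did not follow the order of the levels.

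The promoter windows of the highest pair and of one gene of the lowest pair are shown because they are the ends of this range. Each runs from 250 bases before to 50 after the RefSeq start on GRCm38.p6 and is written 5′ to 3′ on the strand of its gene. Col4a1 is chr8:11312777-11313076 on the minus strand, Col4a2 is chr8:11312555-11312854 on the plus strand and Col4a4 is chr1:82586800-82587099 on the minus strand. Capitals mark the letters GGGCGG, known as a GC box, and the letters of the box named CCAAT. Both strands were searched, so that a GC box on the opposite strand reads CCGCCC here. The letters TATAAA had no match on either strand of these windows.
Col4a1: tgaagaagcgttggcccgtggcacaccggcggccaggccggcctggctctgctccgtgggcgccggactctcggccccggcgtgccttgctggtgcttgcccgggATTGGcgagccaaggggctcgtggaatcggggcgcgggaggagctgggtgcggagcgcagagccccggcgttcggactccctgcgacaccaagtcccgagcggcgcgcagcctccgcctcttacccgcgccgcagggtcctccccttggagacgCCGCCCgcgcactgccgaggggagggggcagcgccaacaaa
Col4a2: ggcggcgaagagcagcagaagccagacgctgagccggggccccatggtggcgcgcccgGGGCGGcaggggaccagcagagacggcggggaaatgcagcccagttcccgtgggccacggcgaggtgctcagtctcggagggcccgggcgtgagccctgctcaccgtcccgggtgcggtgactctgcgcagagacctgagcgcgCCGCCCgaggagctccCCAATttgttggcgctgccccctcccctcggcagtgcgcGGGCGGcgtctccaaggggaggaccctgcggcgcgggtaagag
Col4a4: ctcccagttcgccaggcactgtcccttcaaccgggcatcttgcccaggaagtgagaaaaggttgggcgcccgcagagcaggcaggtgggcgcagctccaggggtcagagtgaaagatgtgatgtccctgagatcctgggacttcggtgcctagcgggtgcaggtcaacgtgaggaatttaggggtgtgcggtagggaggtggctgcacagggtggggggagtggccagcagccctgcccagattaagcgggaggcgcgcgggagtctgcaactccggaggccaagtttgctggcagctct

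The Col4a1 window held 1 GC box and 1 CCAAT, the Col4a2 window 3 GC boxes and 1 CCAAT, and the Col4a4 window neither motif. The windows of Col4a1 and Col4a2 overlap, so the GC box near the end of each is the same one read from either strand. The RefSeq starts of this pair are not 3 bases apart as the deposited ones are. By these windows, the Col4a2 start lies inside the Col4a1 transcript. Among 32851 RefSeq promoter windows of 300 bases, 35.7% held a GC box, 37.4% a CCAAT box and 13.6% the TATAAA letters on either strand. The Col4a1 window held 37 CpG dinucleotides, the Col4a2 window 33 and the Col4a4 window 14, and the median of all windows was 7. The windows of Col4a5 and Col4a6, with 11 and 3 CpG, held 1 GC box each, and that of Col4a5 also held 1 CCAAT. Col4a3 had no entry among these RefSeq windows, so Col4a4 alone stands for the lowest pair. These matches describe letters only.

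The genes that link the networks ranged from one of the highest levels of the set to below its median. Nid1, the nidogen that bridges laminin and collagen IV, was second of all 36 genes at 168 and 149.7 RPKM. Its range overlapped with that of Col4a2, although Nid1 was the higher gene within each uterus. Nid2, the second nidogen, lay at 10.6 and 12.6 RPKM, and Nid1 was 13.8 ± 2.73 times higher. Hspg2, which encodes the heparan sulfate proteoglycan perlecan, lay at 81.2 and 62.0 RPKM on 4416 and 3742 reads. Agrn, which encodes agrin, lay at 19.5 and 16.0 RPKM.

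Pxdn encodes peroxidasin, the enzyme that crosslinks collagen IV through sulfilimine bonds, and lay at 59.2 and 61.0 RPKM. The SMOC genes encode calcium-binding matricellular proteins of the SPARC family. Smoc2 lay at 65.3 and 61.1 RPKM and Smoc1 at 61.3 and 50.5 RPKM. Of the netrins, laminin-related secreted proteins, Ntn1 lay at 13.1 and 11.7 RPKM and Ntn4, which can cap laminin polymers, at 7.03 and 6.04 RPKM. Ntn5 held 0 reads in uterus 1, which allows up to 0.497 RPKM (3 reads), and 1 read in uterus 2.

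Fras1, Frem1, Frem2 and Frem3 encode the Fraser complex, large proteins that anchor embryonic epithelia below the basement membrane. Frem2 lay at 3.13 and 3.39 RPKM and Frem1 at 2.67 and 2.33 RPKM, both above 1 RPKM in both uteri. Fras1 lay at 0.658 and 0.549 RPKM on 40 and 37 reads, and Frem3 held 2 and 1 reads.

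On the cell side, Dag1, which encodes the laminin receptor dystroglycan, lay at 36.3 and 30.2 RPKM. Utrn, which encodes the widely expressed dystrophin relative utrophin, lay at 45.3 and 47.5 RPKM. Dmd, which encodes dystrophin and links dystroglycan to actin in muscle, lay at 15.6 and 17.0 RPKM. Utrn was 2.84 ± 0.0731 times Dmd. The Dmd value was scaled to 13852 bases, and annotated transcripts of this gene run from 369 to 14910 bases, so the RPKM of shorter forms would be understated.

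The sarcoglycans brace dystroglycan in the muscle membrane. Sgcb lay at 8.33 and 8.20 RPKM on 119 and 130 reads. Sgca, the sarcoglycan of striated muscle, lay at 1.35 and 0.676 RPKM on 9 and 5 reads. Of the skeletal muscle markers, Acta1 lay at 83.9 ± 7.83 RPKM and Ckm at 2.34 ± 0.445 RPKM, while Myh1, Myh4 and Mylpf held 1 to 5 reads over both libraries.

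The 2 animals were then compared gene by gene. A two-sided exact binomial test on the recovered reads, with Benjamini-Hochberg adjustment over 15013 genes, called a gene different at an adjusted p under 0.05. It compares these libraries, not conditions, and 1 library per animal gives no check by replicates. Of 34 basement membrane genes with enough reads, 9 (26.5%) were called, against 4.69% of all tested genes (2.55% lower and 2.14% higher in uterus 2). The called genes lay among the 19 with at least 1000 reads over both libraries (47.4% of these), and of all genes at that depth 21.5% were called. Of the 9, 8 were lower in uterus 2 and 1 was higher, against 10.5% lower and 10.9% higher among all genes with at least 1000 reads. A further 3 had an unadjusted p under 0.05 in the exact binomial test without passing the adjustment.

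Hspg2 (NM_008305, chromosome 4, 137024718 to 137126545 on mm9) had the largest difference of the called genes before any shift for GC content, and -0.20 after it. Its log2 ratio of uterus 2 over uterus 1 was -0.39 (95% interval -0.45 to -0.33, adjusted p 3.8e-31 by the exact binomial test). Col4a2 followed at -0.33 (-0.40 to -0.26, exact test, adjusted p 8.4e-19), and its partner Col4a1 lay at -0.21 (-0.26 to -0.16, exact test, adjusted p 4.1e-14). All 3 were lower in uterus 2. The other 5 lower genes were Lama5 at -0.31, Agrn at -0.29, Smoc1 at -0.28, Dag1 at -0.27 and Nid1 at -0.16, with adjusted p-values from 0.0323 for Agrn to 5.2e-05 for Nid1 in the exact test. Intervals cover counting error alone. The Col4a1 reads rest on a chosen common factor. With its smallest possible reads, 1278 and 1223, the adjusted p of Col4a1 was 0.00905 in the exact test.

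Lama2 (NM_008481, chromosome 10, 26701092 to 27336748 on mm9) was the gene that was higher in uterus 2, by a log2 ratio of 0.16 (0.08 to 0.23, exact test, adjusted p 0.00285). For Col4a5 the ratio was 0.06 (-0.04 to 0.16) and for Col4a6 0.03 (-0.10 to 0.15). Lamb1 lay at -0.03 (-0.12 to 0.05), Lamb2 at -0.03 (-0.15 to 0.09) and Pxdn at 0.04 (-0.06 to 0.14), so each of these was within about 0.16 of 0 on this scale. None of the 31 genes that averaged 1 RPKM or more was 2-fold apart, against 2.6% of all 13647 such genes. Sgca came nearest, at a log2 ratio of -0.90 on 9 and 5 reads. The median log2 ratio of the 31 genes was -0.08 and that of all 13647 genes 0.0007.

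**Figure D3:**
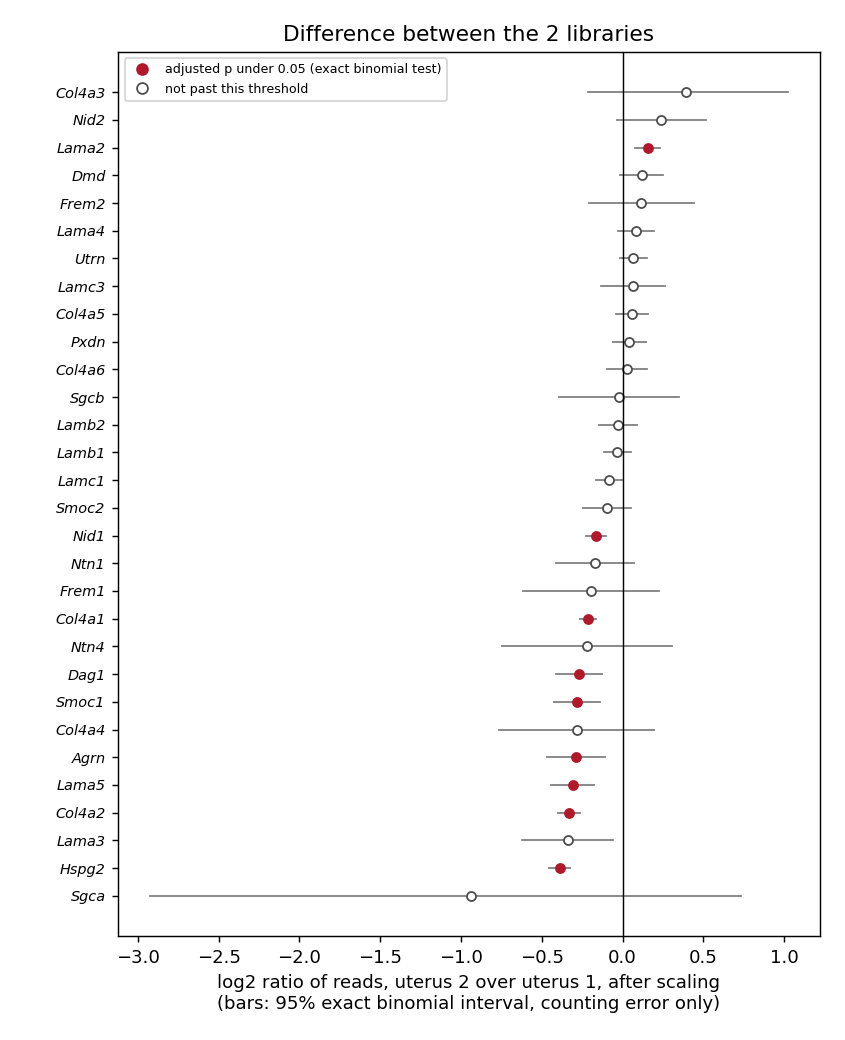
Log2 ratio of scaled reads, uterus 2 over uterus 1 (horizontal axis), for 30 of the 31 genes that averaged 1 RPKM or more, with 95% exact binomial intervals as bars and filled points for an adjusted p under 0.05. The 8 filled points left of 0 include Hspg2, Col4a2 and Col4a1, and Lama2 is the filled point right of 0.

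The GC content of the transcripts moved with these ratios. The 8 genes called lower had a GC content from 50.2% to 60.9% with a median of 57.5%, and Lama2 had 47.9%. Across the 19 genes with at least 1000 reads, GC content and the log2 ratio had a Pearson's r of -0.78 and a Spearman's rho of -0.84. These points share both libraries and their base composition, so the values are a description. Across all 1590 genes at that depth with a sequence, r was -0.29 and rho was -0.29. The median log2 ratio of all these genes was 0.07 below 45% GC, 0.02 from 45% to 50%, -0.02 from 50% to 55%, -0.06 from 55% to 60% and -0.19 in the 31 genes from 60%. Col4a2 and Hspg2, in the last class, had -0.33 and -0.39.

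With the expected ratio of each gene shifted by the median of its GC class, an alternative chosen after seeing the data, 8 of the 9 genes were still called in the same direction. Agrn (NM_021604, chromosome 4, 155539399 to 155571597 on mm9) was not, with a log2 ratio of -0.23 and an adjusted p of 0.13 in the exact binomial test. All 9 ratios became smaller in size: Hspg2 moved to -0.20, Col4a2 to -0.14 and Col4a1 to -0.16. Smoc1 (-0.27), Dag1 (-0.25) and Lama5 (-0.25) then had larger differences than Hspg2, and Nid1 lay at -0.15 and Lama2 at 0.14. By transcript length, the median ratio of all genes with at least 1000 reads was 0.05 below 2000 bases, 0.03 from 2000 to 4000, -0.0024 from 4000 to 6000 and -0.0144 from 6000 bases. The last class holds 14 of the 19 genes, whose median was -0.03, so the classes differed less by length than by GC content.

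**Figure D4:**
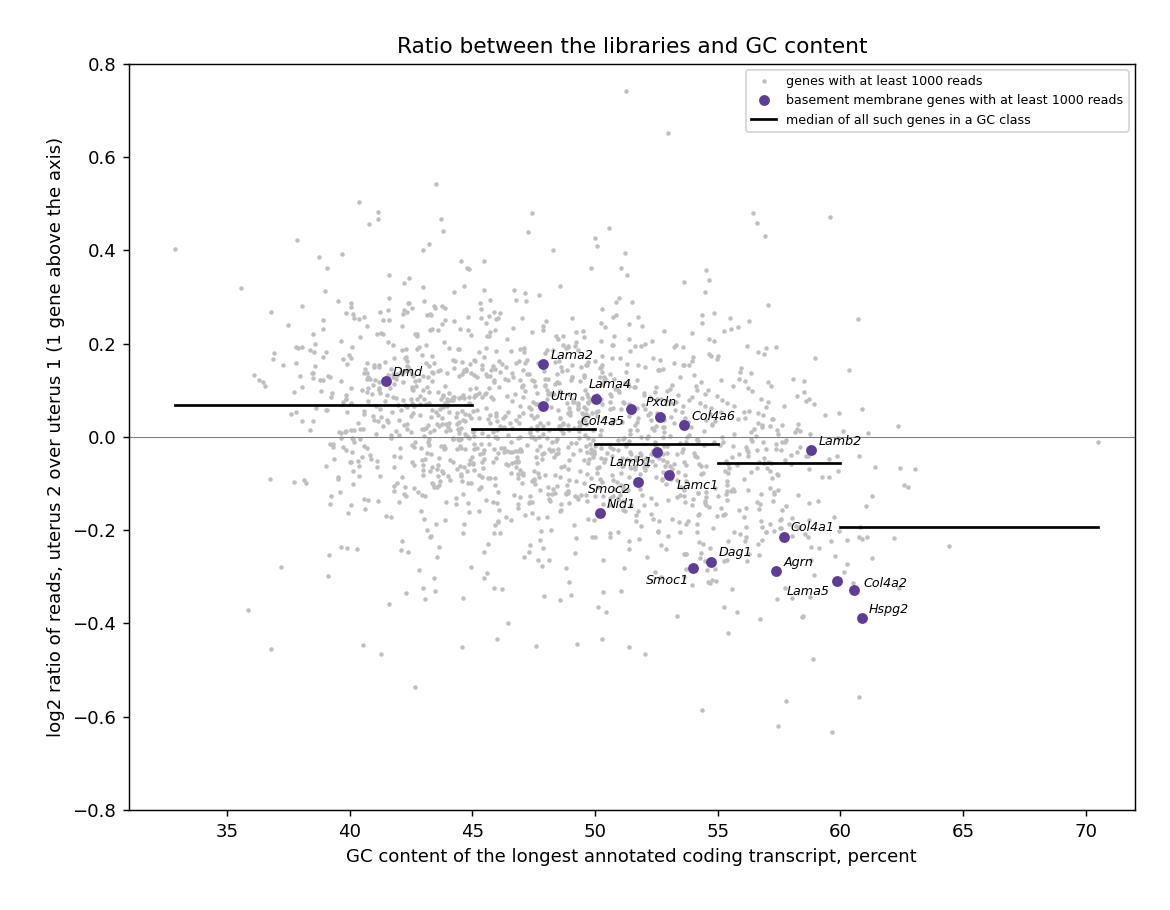
Log2 ratio of scaled reads, uterus 2 over uterus 1 (vertical axis), against the GC content of the longest annotated coding transcript (horizontal axis, percent). Grey points are the 1590 genes with at least 1000 reads (1 gene lies above the axis), black lines their median per GC class and purple points the 19 basement membrane genes. Hspg2, Col4a2 and Lama5 lie lowest among the purple points at the high GC end, and Lama2 and Dmd lie highest at the low GC end.

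Markers of the cell types that make these sheets differed in both directions between the libraries. Of the stromal list, Col1a1 had a log2 ratio of -0.48 and Col1a2 of -0.20, whereas Vim had 0.22 and Dcn 0.34. In the smooth muscle list Acta2 had -0.14 and Myh11 0.16, and in the endothelial list Kdr had -0.46. Krt18 of the epithelial list had 0.42. All 8 were called by the exact binomial test, with adjusted p-values from 0.00066 for Krt18 down to 2.4e-225 for Col1a1. That is 8 of the 20 tested in these 4 lists, against 4.69% of all tested genes and 21.5% of those with at least 1000 reads. The other 12, among them the other genes of the endothelial and epithelial lists, were not called. Beside Kdr, Pecam1 had 0.0045, Cdh5 0.05, Tek 0.06 and Emcn -0.0044, and beside Krt18, Epcam had 0.34, Krt8 0.18, Cdh1 -0.09 and Krt19 -0.09. The median log2 ratio was 0.18 in the epithelial list, 0.0045 in the endothelial, 0.02 in the smooth muscle and 0.09 in the stromal list. Col1a1 (58.9% GC) and Col1a2 (55.7%) were lower and Dcn (42.4%) higher, the direction of the GC classes. Vim (53.9%) and Myh11 (53.2%) were higher and Acta2 (49.0%) lower, against that direction. The part of GC content in the marker ratios was not tested, nor was the part of these markers in the basement membrane ratios.

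In 6 lists of genes around the basement membrane, 10 of 76 tested genes (13.2%) were called between the libraries, 7 lower and 3 higher in uterus 2, against 4.69% of all tested genes and 21.5% of those with at least 1000 reads. Of 13 integrin and other receptors, all 13 were detected and Itgb1, the shared beta subunit of most laminin and collagen receptors, was highest at 160.1 ± 3.69 RPKM, followed by Sdc4 at 55.2 ± 1.97 RPKM and Ddr2, a collagen receptor kinase, at 49.2 ± 0.0580 RPKM. Itga6, a laminin-binding alpha subunit, lay at 38.6 ± 1.31 RPKM. Only Itgb4, its partner in hemidesmosomes, was called in this list. Itgb4 fell from 8.50 RPKM in uterus 1 to 5.22 RPKM in uterus 2, a log2 ratio of -0.69 (exact binomial test, adjusted p 0.00062). The median log2 ratio of the list was -0.07.

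Of 10 further dystrophin complex genes, 8 were detected and none of the 10 tested was called by the exact binomial test. Of all genes 58.4% were detected and 4.69% of those tested were called, so 0 of 10 is no result about this list. Sntb2, a syntrophin, was highest at 21.3 ± 0.503 RPKM, followed by Sgce, the widely expressed epsilon-sarcoglycan, at 17.3 ± 0.307 RPKM and Sspn, sarcospan, at 10.8 ± 1.23 RPKM. The enzymes that build the laminin-binding glycan on dystroglycan were all detected in the 12 of 13 matched, and none was called. Pomgnt1 was highest at 24.5 ± 1.47 RPKM, followed by B3galnt2 at 19.5 ± 1.89 RPKM. Among 8 netrin and agrin receptors 3 were detected, with Neo1 (neogenin) at 33.4 ± 0.687 RPKM, Lrp4 (the agrin receptor) at 4.51 ± 0.503 RPKM and Unc5b at 1.71 ± 0.156 RPKM, and none of the 6 tested was called. Dcc lay at 0.657 ± 0.0362 RPKM. As for the dystrophin complex genes, 0 of 12 and 0 of 6 called are no result about these lists.

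Of 21 genes of collagen biosynthesis, 19 were detected. The median level of the 21 was 28.2 RPKM in uterus 1 and 29.1 RPKM in uterus 2, against 3.28 and 3.23 RPKM for all genes, and the lowest value above 0 was 0.791 ± 0.0278 RPKM for Glt25d2. Mia3 is listed at 0 in both uteri, which may be a failed estimate and is not read as a level. The list was led by Serpinh1, the collagen chaperone of the endoplasmic reticulum, at 464 ± 27.7 RPKM, P4hb, a subunit of prolyl hydroxylase, at 317 ± 0.615 RPKM and Ppib at 89.4 ± 11.6 RPKM. Among the 20 tested, P4ha1 (0.51) and Plod1 (0.25) were called higher in uterus 2 and Serpinh1 (-0.12) and Glt25d1 (-0.28) lower, as log2 ratios, which is 4 of 20 against 4.69% of all tested genes and 21.5% of those with at least 1000 reads. Of 17 other matched genes of the basement membrane zone, 13 were detected, led by Sparc at 725 ± 51.1 RPKM, Col18a1 at 167 ± 20.8 RPKM and Col15a1 at 131 ± 4.84 RPKM. Sparc encodes a collagen-binding matricellular protein, and Col18a1 and Col15a1 encode proteoglycan collagens of the basement membrane zone.

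In this last list 4 of the 15 tested genes were called lower in uterus 2, Sparc (-0.14), Col18a1 (-0.26), Col7a1 (-0.39) and Fbln2 (-0.40), and Matn2 (0.27) was called higher, as log2 ratios, against 2.55% of all tested genes called lower and 2.14% called higher. Among genes with at least 1000 reads these shares were 10.5% and 10.9%. The median log2 ratio of the list was -0.14, against 0.0007 for all genes and -0.08 for the 31 basement membrane genes. GC content was 59.8% for Col18a1, 52.5% for Sparc and 50.3% for Matn2, and its part in these ratios was not tested. These lists were chosen with earlier results of these data known.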

How the data were processed

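Whole uterus RNA from 2 mice was sequenced, 1 library each, after TRIzol extraction, per the labels' protocols. The authors deposited RPKM values, per the series' design text, and the submitters' processing notes name TopHat, edgeR and mm9. How reads were counted, and against which annotation, is not given in the sources used here. The 2 deposited tables hold the same RPKM for all 22740 genes.

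Basement membrane genes were selected by symbol. The members and lists were chosen with earlier results of these data known. All but 1 of the 36, which is not reported here, are named, with the 2 or 3 highest genes of each pathway list. Further list genes were named after their values were seen.

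Log2 ratios for medians used a pseudocount of 0.1 RPKM, which understates changes of low genes. Reads were recovered, since RPKM of single-exon genes are whole multiples of 1 read: 174 of 174 values above 1 read in uterus 1 and 183 of 183 in uterus 2 were whole within 0.001. This gave scaling totals of 3834174 and 4256101. Of 16104 genes above 0 in both, 16002 had whole reads with a whole transcript length. Common factors were chosen by closeness to GENCODE M1 lengths (scale 0.05). For 18 of the 36 the length was an annotated one, and for 18 the nearest. Ntn4 (65 and 62 reads) may hold a multiple. The reads of Col4a1, Pxdn and Frem2 were taken as multiples of the smallest possible ones. Genes with at least 6 reads entered the exact binomial test (scipy 1.17.1), whose script was tested on simulated data, and 0.5 was added to reads in its log2 ratios. P-values measure only counting error between 2 libraries. Promoter windows are from a RefSeq table, in which 24 of the 36 were matched. Alternatives were other thresholds, pseudocounts, filters, scalings and single libraries.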

Additional observations from a re-analysis of the deposited data

How the results depend on the processing

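On the TPM scale, a change of unit, the median level was 41.5. Without a filter 1 gene was 2-fold apart, Ntn5, on 1 read in all. Leaving out either library gave a median level of 17.3 to 18.2 RPKM, 30 to 32 detected genes, 75.8% to 79.4% for the share of Col4a1 and Col4a2 and 44.7% to 48.3% for Lama2; for means of 2 libraries this step is small by construction. Other thresholds and the TPM scale gave 29 to 34 detected genes. The median log2 ratio stayed negative in the 6 alternatives run, from -0.12 to -0.06, while the median of all genes lay between -0.0048 and 0.0105. The same 9 genes were called with the smallest possible reads, with at least 20 reads and with median-centred totals, and 8 of them after shifting by GC class. Genes under about 100 reads, such as Col4a3, Lama1 and Sgca, have intervals too wide to show differences of the size called here. No paired analysis was possible because both libraries form a single group.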
